A study of Rattus norvegicus with 6 samples.

Results

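The 10 insulin and IGF signalling genes described here are the ligands Ins1, Ins2, Igf1 and Igf2, the receptors Insr, Igf1r and Igf2r, the receptor substrates Irs1 and Irs2, and the binding protein Igfbp5. They were taken by gene symbol from the 68842 transcript clusters of a rat transcriptome array, and each symbol had exactly 1 cluster, so no choice between clusters was needed. Lumbar dorsal root ganglia were compared between 3 diabetic rats and 3 control rats, with 1 array per rat. All were male Sprague-Dawley rats of 180 to 220 g at the start. Diabetic rats were made so by 1 injection of streptozotocin into the abdomen (65 mg/kg), which kills the beta cells of the pancreas, and those under 16.7 mM blood glucose 1 week later were dropped. Control rats received citrate buffer. Ganglia of levels L3 to L6 from both sides were pooled within each rat 8 weeks after the injection, so each value is an average over all cells of several ganglia. The rats' age is not given in the sources used here.

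Insulin and the insulin-like growth factors are secreted peptides that bind receptor tyrosine kinases. The activated receptor phosphorylates the docking proteins IRS1 and IRS2, which recruit PI3 kinase and so switch on AKT, while adaptors of the SHC and GRB2 type lead to RAS and ERK. AKT keeps FOXO transcription factors out of the nucleus and, through the TOR complex, promotes translation. Binding proteins hold IGFs in the extracellular space. Sensory neurons carry insulin and IGF receptors, and both hormones are known to promote survival and neurite growth of these cells.

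All signals are log2 values, so a difference of 1 is a doubling. The level of background was read from 1153 intron control probe sets, whose 90th percentile lay between 6.06 and 6.27 in the diabetic arrays and between 6.18 and 6.67 in the control arrays. By this measure 6 of the 10 genes lay above background on all 6 arrays: Insr, Igf1r, Igf2r, Irs2, Igf1 and Igfbp5. Ins1, Ins2 and Igf2 lay below it on every array, and Irs1 exceeded it on 1 array. The arrays did not separate by group. On the first principal component, with 40% of the variance, diabetic replicates 1, 2 and 3 lay at -31.8, 1.83 and -35.3, and control replicates 1, 2 and 3 at 13.8, -6.47 and 57.9. All 13 sensory neuron markers on the array were above background on all arrays.

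None of the 10 genes passed an adjusted p of 0.05 in limma's linear model, and 2 had an unadjusted p under 0.05: Insr, with a higher mean in diabetic ganglia, and Ins1, with a lower one. Over all clusters 0.00581% passed the adjusted threshold and 7.85% the unadjusted one, 2.73% with higher and 5.11% with lower means. In 0 of the 10 genes were the groups free of overlap, a state that 13.3% of all clusters showed, 4.96% as higher and 8.32% as lower in diabetic ganglia. Means were higher in diabetic ganglia for 6 genes and lower for 4, with a median difference of 0.04, against -0.04 over all clusters. Among the 8875 coding clusters above background on all arrays the median was 0.06, and 64.6% had higher means. The widest difference was that of Igfbp5.

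**Figure D1:**
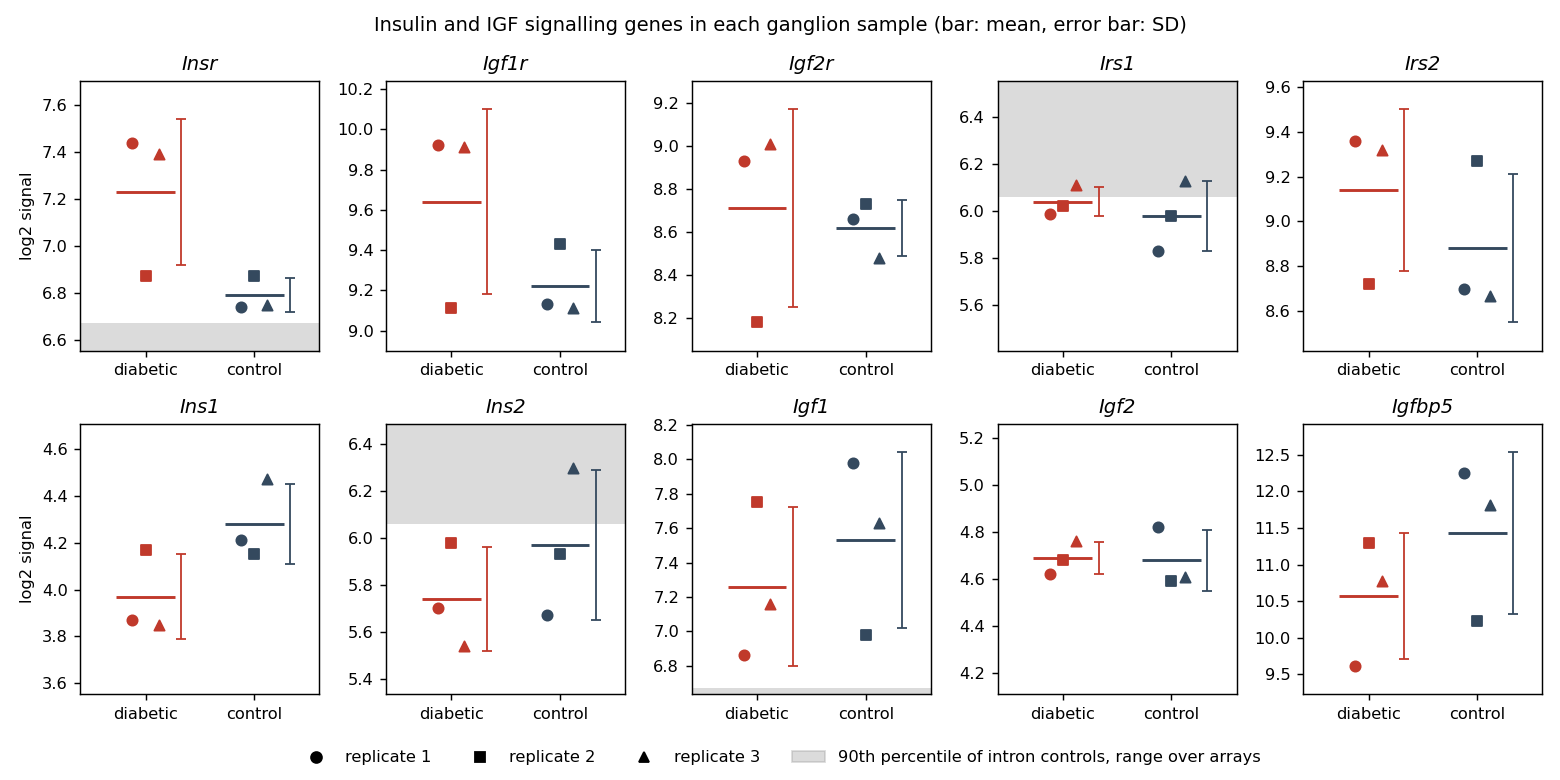
Log2 signal of the 10 genes in each rat, diabetic left of control; points are arrays, with a symbol per replicate number, horizontal bars are means and error bars SD (n = 3 each). Each panel has its own vertical axis, and the grey band spans the 90th percentiles of the intron controls over the arrays (6.06 to 6.67). Diabetic replicates 1 and 3 carry the highest signals of Insr, Igf1r, Igf2r and Irs2, while diabetic replicate 2 lies with or below the controls.

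The insulin receptor gene Insr encodes the tyrosine kinase through which insulin acts. Its signal was 7.44, 6.87 and 7.39 in diabetic replicates 1, 2 and 3, against 6.74, 6.87 and 6.75 in control replicates 1, 2 and 3. Diabetic replicates 1 and 3 were above every control, and diabetic replicate 2 lay within the control range. The difference was 0.44 (95% interval 0.07 to 0.81), or 1.36-fold, with an unadjusted p of 0.025 and an adjusted p of 0.60 in limma. Spread was wider in diabetic ganglia, at an SD of 0.31 against 0.074 in controls. Without diabetic replicate 2 the difference was 0.62 (limma adjusted p = 0.28), and without diabetic replicate 1 it was 0.34. The unadjusted limma p was 0.093 in that fit, 0.088 with diabetic replicate 3 left out, 0.065 with control replicate 1 left out and 0.058 with control replicate 3 left out. The control signals lay just above background, which for a summarised array signal can pull a fold towards 1. Insr is measured by 260 probes and placed by the deposited annotation, whose build is not given in the sources used here, on chromosome 12 (1678619 to 1816591, minus strand).

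The gene of the type 1 IGF receptor, Igf1r, which binds IGF1 and IGF2 and signals like the insulin receptor, followed the same arrays. Its signal was 9.92, 9.11 and 9.91 in diabetic replicates 1, 2 and 3, against 9.13, 9.43 and 9.11 in control replicates 1, 2 and 3. Again diabetic replicates 1 and 3 were highest, and diabetic replicate 2 was level with the lowest controls. The difference was 0.42 (95% interval -0.09 to 0.94; limma adjusted p = 0.67), 0.69 without diabetic replicate 2 (limma adjusted p = 0.32) and 0.29 without either of the other diabetic arrays. The cluster of 300 probes covers chromosome 1 from 128923884 to 129213816 (plus strand).

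Igf2r encodes the cation-independent mannose 6-phosphate receptor, which removes IGF2 from the cell surface and delivers newly made hydrolases to lysosomes. It was at 8.93, 8.18 and 9.01 in diabetic replicates 1, 2 and 3, and at 8.66, 8.73 and 8.48 in control replicates 1, 2 and 3. The diabetic arrays held both the highest and the lowest signal. The difference of means was 0.08 (95% interval -0.41 to 0.58; limma adjusted p = 0.92). Leaving out diabetic replicate 2 gave 0.35 and leaving out diabetic replicate 3 gave -0.07, so its direction rested on single arrays. Insrr, the gene of the insulin receptor-related receptor, a further kinase of this family, was below background on all arrays, at 4.52 to 4.89 in diabetic and 4.62 to 4.67 in control ganglia.

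The promoters of these receptor genes are printed because their signals were high in the same diabetic arrays. The windows run from 250 bases before to 50 bases after the annotated start (RefSeq, build GRCr8), 5′ to 3′ on the gene's strand, and 9 of the 10 genes had an entry. Capitals mark matches on either strand to the FOXO site TGTTTAC, the GC box GGGCGG, the TATA box TATAAA, the E-box CACGTG and GTCACGTGAC, the E-box of the Igf2r window with 2 bases on each side. These motifs were chosen with the sequences in view.
Insr, chr12:6128754-6129053, minus strand: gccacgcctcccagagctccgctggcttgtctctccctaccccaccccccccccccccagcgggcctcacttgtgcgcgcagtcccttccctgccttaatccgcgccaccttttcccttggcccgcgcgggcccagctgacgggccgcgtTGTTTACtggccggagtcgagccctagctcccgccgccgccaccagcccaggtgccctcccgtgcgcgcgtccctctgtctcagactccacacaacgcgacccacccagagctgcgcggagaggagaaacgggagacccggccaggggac
Igf1r, chr1:130959747-130960046, plus strand: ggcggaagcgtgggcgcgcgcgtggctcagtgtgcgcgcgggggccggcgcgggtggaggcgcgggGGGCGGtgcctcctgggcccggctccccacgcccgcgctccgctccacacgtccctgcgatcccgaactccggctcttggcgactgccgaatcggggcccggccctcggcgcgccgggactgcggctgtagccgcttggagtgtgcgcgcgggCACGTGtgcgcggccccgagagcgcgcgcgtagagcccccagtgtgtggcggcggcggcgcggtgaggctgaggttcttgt
Igf2r, chr1:50526628-50526927, plus strand: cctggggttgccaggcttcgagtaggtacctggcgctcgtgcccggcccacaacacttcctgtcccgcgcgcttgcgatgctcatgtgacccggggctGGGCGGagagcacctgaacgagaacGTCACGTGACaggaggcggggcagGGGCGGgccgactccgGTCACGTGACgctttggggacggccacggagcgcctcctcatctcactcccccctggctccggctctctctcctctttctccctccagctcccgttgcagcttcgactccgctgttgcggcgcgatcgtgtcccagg

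All 3 windows were rich in G and C, at 71.3% for Insr, 78.0% for Igf1r and 68.0% for Igf2r, against a median of 51.7% over 33469 promoters, and none held a TATA box, which 14.2% of promoters held. The Insr window held 1 FOXO site, 100 bases before the start, a match found in 3.78% of promoters. FOXO factors are known to activate the insulin receptor gene when insulin is low. The Igf2r window held GTCACGTGAC at 127 and at 87 bases before the start, a sequence found in 0.233% of promoters and known as the element that TFEB family factors bind in lysosomal genes. The Igf1r window held 1 GC box and 1 E-box, matches found in 33.1% and 6.42% of promoters. Such matches describe letters in these windows, not binding in the ganglia.

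Of the receptor substrates, Irs2 shared the pattern of the receptors and Irs1 was at background. Irs2, the docking protein whose gene is known to be repressed by insulin in liver, was at 9.36, 8.72 and 9.32 in diabetic replicates 1, 2 and 3, against 8.70, 9.27 and 8.67 in control replicates 1, 2 and 3. Here control replicate 2 was almost as high as the high diabetic arrays, and diabetic replicate 2 almost as low as the low controls. The difference was 0.26 (95% interval -0.25 to 0.76; limma adjusted p = 0.76), and single arrays decided its size: 0.46 without diabetic replicate 2 and 0.45 without control replicate 2, but 0.14 without diabetic replicate 1, 0.15 with control replicate 3 left out, 0.16 with diabetic replicate 3 and 0.17 with control replicate 1. Irs1 was at 5.99, 6.02 and 6.11 in diabetic replicates 1, 2 and 3, and at 5.83, 5.98 and 6.13 in control replicates 1, 2 and 3. These ranges overlap, and only the signal of diabetic replicate 3 exceeded its array's background percentile, so no fold is given. Irs2 lies on chromosome 16 (83823836 to 83848569, plus strand) and Irs1 on chromosome 9 (88033668 to 88086488, minus strand).

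**Figure D2:**
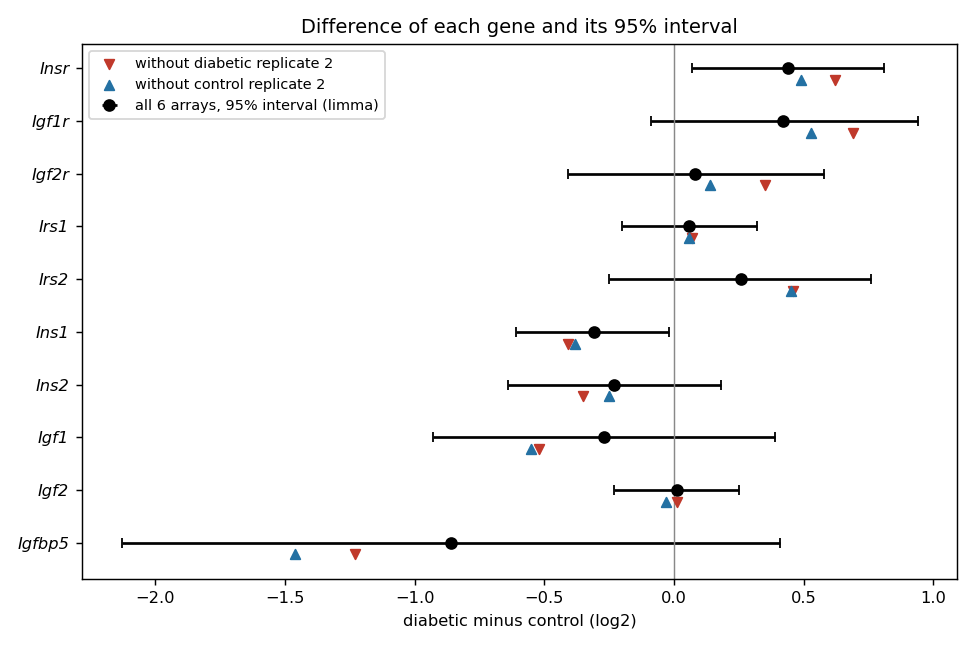
Difference of mean log2 signal, diabetic minus control, for each gene; black points are estimates from all 6 arrays with 95% intervals from limma, and triangles are estimates without diabetic replicate 2 (red) or control replicate 2 (blue). Only the intervals of Insr (0.07 to 0.81) and Ins1 (-0.61 to -0.02) leave out 0, and leaving out diabetic replicate 2 moves Igf1r to 0.69 and Igf2r to 0.35. Fits with another array left out are not drawn, and several gave smaller differences. Without diabetic replicate 1 they were 0.34 for Insr, 0.14 for Irs2 and -0.39 for Igfbp5, and without control replicate 1 -0.05 for Igf1.

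The insulin genes gave no signal above background in ganglia of either group. Rats carry a pair of insulin genes, Ins2, the ancestral one, and Ins1, a copy of it, both expressed in pancreatic beta cells. Ins1 was at 3.87, 4.17 and 3.85 in diabetic replicates 1, 2 and 3, and at 4.21, 4.15 and 4.47 in control replicates 1, 2 and 3. The highest control was replicate 3, the array on which the intron controls also had their highest median, 4.21, against 3.95 to 4.06 on the others. The intron controls as a whole had a median difference of -0.11, and that of Ins1 was -0.31 (unadjusted p = 0.040, limma adjusted p = 0.62). With control replicate 3 left out it was -0.21 (limma adjusted p = 0.87). The part of the background in this difference was not tested. Ins2 was at 5.70, 5.98 and 5.54 in diabetic replicates 1, 2 and 3, and at 5.67, 5.93 and 6.30 in control replicates 1, 2 and 3, with overlapping ranges (limma adjusted p = 0.75).

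The promoters of the insulin genes are printed beside those of the receptors because they show the opposite layout, a TATA box and moderate GC content, and because they resemble each other, as the genes themselves do.
Ins1, chr1:261185869-261186168, plus strand: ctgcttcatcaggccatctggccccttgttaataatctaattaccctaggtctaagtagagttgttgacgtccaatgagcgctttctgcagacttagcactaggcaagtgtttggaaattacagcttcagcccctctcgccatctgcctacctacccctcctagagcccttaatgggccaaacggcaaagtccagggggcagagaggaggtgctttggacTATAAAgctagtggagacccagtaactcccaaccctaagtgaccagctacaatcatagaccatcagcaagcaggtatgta
Ins2, chr1:207273756-207274055, minus strand: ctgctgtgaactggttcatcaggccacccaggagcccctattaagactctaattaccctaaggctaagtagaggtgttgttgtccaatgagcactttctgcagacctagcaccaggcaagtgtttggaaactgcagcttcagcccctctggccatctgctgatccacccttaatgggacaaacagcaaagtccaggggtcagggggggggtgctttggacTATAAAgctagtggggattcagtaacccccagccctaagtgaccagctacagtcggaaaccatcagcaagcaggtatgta

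Both hold TATAAA 30 bases before the start, and 49.7% and 52.0% of their bases are G or C. In a global alignment 251 positions were identical, 37 differed and 24 were gaps. With the gaps left out, 87.2% of aligned bases matched. Probes for the genes could bind both transcripts, which was not tested. In the deposited annotation Ins2 (215856961 to 215862045) and Igf2 (215828102 to 215839049) are neighbours on the minus strand of chromosome 1, while Ins1 lies at 272799764 to 272800504 on the plus strand.

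Of the growth factors, Igf1 was measured above background and Igf2 was not. Igf1, made locally by macrophages, fibroblasts and glia besides the liver, was at 6.86, 7.75 and 7.16 in diabetic replicates 1, 2 and 3, against 7.98, 6.98 and 7.63 in control replicates 1, 2 and 3. Diabetic replicate 2 was among the highest arrays and control replicate 2 among the lowest, the reverse of their places for Irs2. The difference was -0.27 (95% interval -0.93 to 0.39; limma adjusted p = 0.80), -0.55 without control replicate 2 and -0.05 without control replicate 1. Igf2, an imprinted growth factor abundant in the fetus, was at 4.62, 4.68 and 4.76 in diabetic replicates 1, 2 and 3, and at 4.82, 4.59 and 4.61 in control replicates 1, 2 and 3. These signals lie under the background percentile and the ranges overlap. Igf1 lies on chromosome 7 (28412123 to 28491821, plus strand).

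Igfbp5, whose product is secreted, binds IGFs and attaches to extracellular matrix, varied most. Its signal was 9.62, 11.30 and 10.78 in diabetic replicates 1, 2 and 3, against 12.25, 10.23 and 11.81 in control replicates 1, 2 and 3. Control replicates 1 and 3 were above every diabetic array, while control replicate 2 was below diabetic replicates 2 and 3. The means were 10.57 ± 0.86 in diabetic and 11.43 ± 1.1 in control ganglia (SD, n = 3 each), a difference of -0.86 (95% interval -2.13 to 0.41; limma adjusted p = 0.70). The interval includes a fall to 0.228-fold and a rise to 1.33-fold. Without control replicate 2 the difference was -1.46 (limma adjusted p = 0.32), and without diabetic replicate 1 it was -0.39. The cluster of 70 probes covers chromosome 9 from 80150090 to 80167038 (minus strand).

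**Figure D3:**
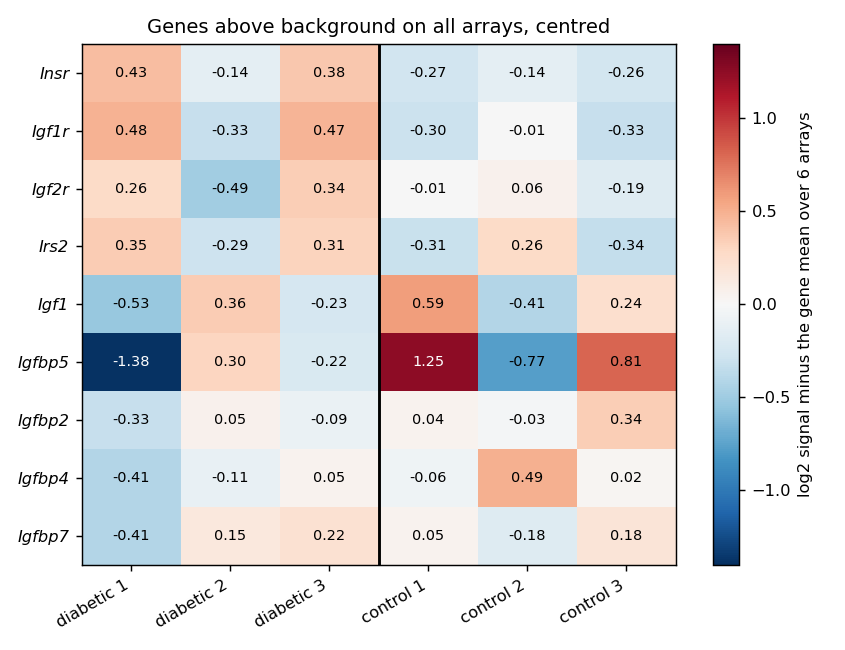
Log2 signal of the 6 genes above background on all arrays and of Igfbp2, Igfbp4 and Igfbp7, minus each gene's mean over the 6 arrays; columns are arrays, diabetic left of the black line and control right of it, with red above and blue below the mean. Insr, Igf1r, Igf2r and Irs2 are highest in diabetic replicates 1 and 3, and Igf1 and Igfbp5 lowest in diabetic replicate 1 (-0.53 and -1.38) and control replicate 2 (-0.41 and -0.77).

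Markers of other cell types moved with some of these genes, and in bulk ganglia fewer cells of a type and less RNA per cell cannot be told apart. Of 12 fibroblast and perineurial markers 8 had lower means in diabetic ganglia (median difference -0.23), 3 of them without overlap, Col1a1, Col1a2 and Col3a1, against 8.32% of all clusters, while 11 were above background on all arrays. Their median level, centred on each gene's mean, was -0.32, 0.02 and -0.14 in diabetic replicates 1, 2 and 3, and 0.35, -0.15 and 0.31 in control replicates 1, 2 and 3, the order of arrays that Igfbp5 showed. The summed signal of these markers ran from 293000 to 311000 in diabetic and from 254000 to 282000 in control arrays, the other direction, with Thy1, a surface protein that neurons share, at 17.72 to 17.85 in diabetic and 17.37 to 17.82 in control arrays and so the bulk of each sum. Macrophage markers had higher means in 9 of 12 (median 0.26; sums 1360 to 2020 in diabetic and 856 to 1610 in control arrays), with 5 below background on all arrays, among them Ptprc and Itgam. Their centred median was lowest in control replicate 2, at -0.59, and highest in diabetic replicate 2, at 0.45, places that Igf1 shared in part. Without control replicate 2 the macrophage median was 0.03, and without diabetic replicate 2 it was 0.10. The fibroblast median ran from -0.49 to -0.04 with single arrays left out.

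Myelinating Schwann cell markers had lower means in 13 of 14 (median -0.53), 12 of them without overlap, against 8.32% of all clusters. Their sums ran from 295000 to 424000 in diabetic and from 444000 to 530000 in control arrays. Skeletal muscle markers were higher in control replicate 2, with a centred median of 1.06 against -0.25 to -0.13 on the other arrays (sums 336 to 372 in diabetic and 328 to 1050 in control arrays), and 10 of 12 were below background on all arrays. Their median difference was -0.40, and -0.03 without control replicate 2. Sensory neuron markers had a centred median of 0.10, -0.05 and 0.12 in diabetic replicates 1, 2 and 3, and of -0.07, 0.12 and -0.16 in control replicates 1, 2 and 3 (sums 1740000 to 1960000 in diabetic and 1620000 to 2000000 in control arrays). Diabetic replicates 1 and 3 and control replicate 2 were thus the arrays with the higher neuronal markers, as they were those with the highest Igf1r and Irs2. Satellite glia markers had lower means in 7 of 12 (median -0.07), endothelial markers higher means in 8 of 11 (0.05) and leptomeningeal and mural markers lower means in 8 of 12 (-0.03). Each of these 3 medians changed sign when single arrays were left out, the endothelial one to -0.05 without control replicate 2. The part of cell makeup in the differences of the 10 genes was not tested.

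The other IGF binding proteins and the proteins that cut or block them gave 0 of 13 past either threshold in limma, Igfbp5 included. Igfbp2 was at 7.21, 7.59 and 7.44 in diabetic replicates 1, 2 and 3, and at 7.58, 7.51 and 7.88 in control replicates 1, 2 and 3. Igfbp4, an inhibitor of IGF action that the protease PAPP-A cleaves, had the lower mean in diabetic ganglia, at a difference of -0.31 (limma adjusted p = 0.68). Igfbp3, the main carrier of IGFs in serum, had the higher mean by 0.29 (adjusted p = 0.67) and was above background on 2 arrays. Igfbp6, which prefers IGF2, was higher by 0.22 (limma adjusted p = 0.80) and above background on 4 arrays. Igfbp7, a matrix protein of low IGF affinity, was at 15.29 to 15.92 in diabetic and 15.52 to 15.88 in control ganglia. Pappa2, a further protease, had the smallest p of the list (difference 0.47, limma adjusted p = 0.66) but lay below background on all arrays.

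Beyond the 10 genes, 134 further genes of the pathway, from binding proteins and insulin processing to the FOXO factors, were examined in 7 lists, and 0 passed an adjusted p of 0.05 in limma. At an unadjusted p under 0.05 there were 8 with higher (5.97%) and 3 with lower means (2.24%). Among the 8875 coding clusters above background on all arrays these shares were 6.54% and 3.90%. Higher means were found for 65.7% of the 134, against 64.6% of those coding clusters, and groups without overlap for 11.9% higher and 5.97% lower, against 11.9% and 5.63%. Over all clusters 4.96% were higher and 8.32% lower without overlap. Of the 134 genes, however, only 88 were above background on all arrays and 31 were below it on all, and over all coding clusters 49.5% had higher means. Scaling moved these shares: 82.8% of pathway genes and 78.1% of those coding clusters had higher means after median centring, and 70.1% and 55.0% after quantile normalization. Without diabetic replicate 2 the count at an unadjusted limma p under 0.05 was 27, and it was 3 without diabetic replicate 1, diabetic replicate 3 or control replicate 1. The count over all clusters moved as well, from 5402 with all arrays to 7099 without diabetic replicate 2. It was 3434 without diabetic replicate 1, 3243 without diabetic replicate 3 and 4882 without control replicate 1.

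Among adaptors and receptor brakes, 19 of 30, Irs1 and Irs2 included, had higher means (median 0.06). At an unadjusted limma p under 0.05 there were 2 with higher and 2 with lower means, 6.67% each. Over all clusters these shares were 2.73% and 5.11%, and among coding clusters above background on all arrays 6.54% and 3.90%. Grb10, an adaptor that binds the insulin and IGF1 receptors and dampens them, was at 6.87, 6.75 and 7.04 in diabetic replicates 1, 2 and 3, against 6.49, 6.57 and 6.54 in control replicates 1, 2 and 3. Every diabetic array was above every control array, as in 4.96% of all clusters (difference 0.36, limma adjusted p = 0.58). Grb10 exceeded background on 5 arrays. Gab2, a docking protein for PI3 kinase and SHP2, had a difference of 0.52 (adjusted p = 0.59). The 2 with lower means, named here after their values were seen, were Grb14, the relative of Grb10 that also inhibits the insulin receptor (8.32, 8.45 and 8.74 in diabetic replicates 1, 2 and 3, against 8.82, 8.80 and 8.86 in control replicates 1, 2 and 3; limma adjusted p = 0.63), and the adaptor Shc1 (difference -0.30, adjusted p = 0.61). Both had no overlap between the groups, as 8.32% of all clusters had in this direction.

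PI3 kinase and AKT genes had higher means in 18 of 25 (median 0.07). Inpp5k, an inositol phosphatase, was at 9.74, 9.35 and 9.49 in diabetic replicates 1, 2 and 3, against 9.21, 9.25 and 9.21 in control replicates 1, 2 and 3. Its groups did not overlap, as in 4.96% of all clusters in this direction (difference 0.30, limma adjusted p = 0.64). The regulatory subunit gene Pik3r1 differed by 0.07, the kinase gene Akt1 by 0.11 and Akt2, the isoform tied to glucose uptake, by -0.15, with limma adjusted p values of 0.72 to 0.92. Akt2 was lower on every diabetic array than on any control array, as were 8.32% of all clusters. In this list 2 genes were free of overlap in each direction. In the TOR list 16 of 18 had higher means (median 0.13) and 0 had an unadjusted p under 0.05. Eif4b and Ulk1 had the smallest p, with differences of 0.27 and 0.28, and Mtor differed by 0.06.

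RAS and ERK genes had higher means in 11 of 15 (median 0.09). The scaffold gene Ksr1, above background on 3 arrays, had a difference of 0.28 (limma adjusted p = 0.64). That of the ERK pathway inhibitor Spry1, below background on all arrays, was 0.31. The list of FOXO factors and FOXO-regulated genes was split, with 10 of 21 higher (median -0.01). At an unadjusted p under 0.05 there were 4 with higher means (19.0%), against 6.54% of coding clusters above background and 2.73% of all clusters, a difference that was not tested, in a list chosen with results for these arrays known. Foxo1 and Foxo3 differed by 0.01 and 0.12. Txnip, which lowers glucose uptake and is known for its induction by glucose as well as its regulation by FOXO, was at 13.21, 12.81 and 13.43 in diabetic replicates 1, 2 and 3, against 11.60, 11.29 and 12.06 in control replicates 1, 2 and 3 (limma adjusted p = 0.50). Pdk4, the kinase that shuts pyruvate out of mitochondria, was at 7.08, 6.24 and 6.33 in diabetic replicates 1, 2 and 3, against 5.84, 5.69 and 5.90 in control replicates 1, 2 and 3, and exceeded background on 2 arrays (adjusted p = 0.54). The other 2 of these 4, named after their values were seen, were the ubiquitin ligase gene Fbxo32 (difference 0.38, limma adjusted p = 0.62) and the cell cycle inhibitor gene Cdkn1b (0.44, adjusted p = 0.64). Only 13 of the 21 genes were above background on all arrays. Groups without overlap were found for 4 genes as higher (19.0%) and 2 as lower (9.52%), against 4.96% and 8.32% of all clusters. The 2 lower ones, also named afterwards, were Gadd45a (difference -0.20) and Sod2 (-0.15). The FOXO targets of liver, Igfbp1, G6pc1 and Pck1, likewise named afterwards, lay below background on all arrays.

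**Figure D4:**
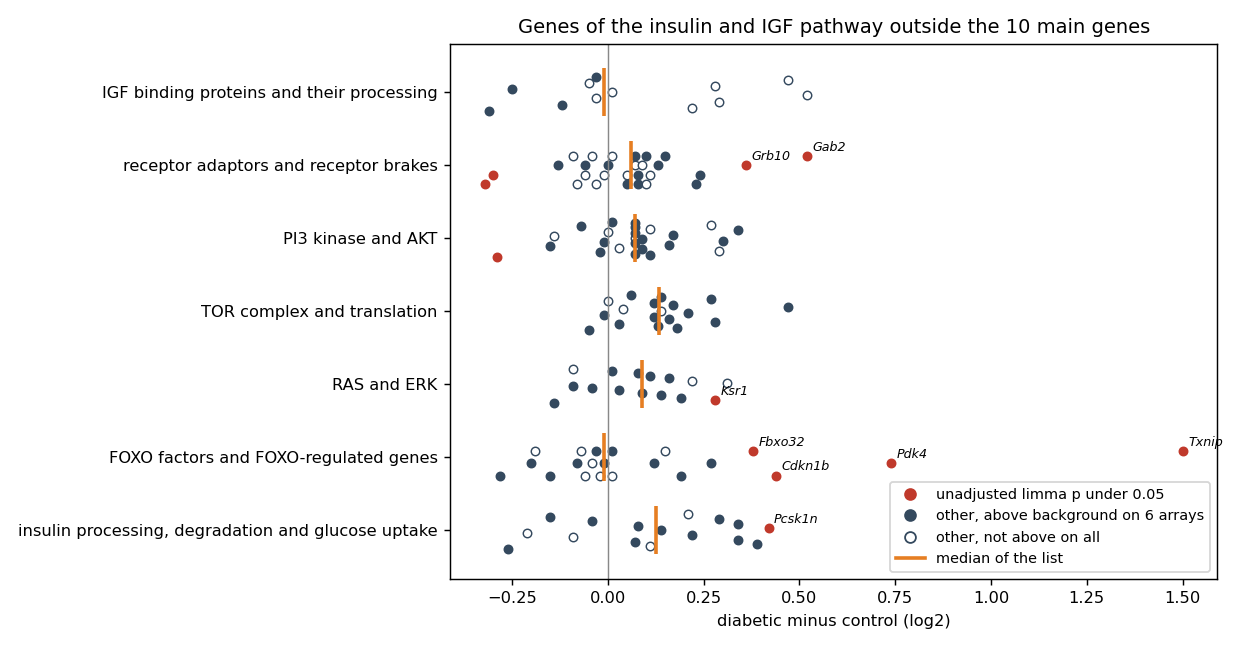
Difference of mean log2 signal, diabetic minus control, for the pathway genes outside the 10 main genes, by list. Dark filled points were above background on all arrays and open points were not. Red points had an unadjusted limma p under 0.05 at any level (named where the mean was higher). Of these, Grb10, Ksr1 and Pdk4 were not above background on all arrays. Orange bars are list medians. Most points lie within 0.5 of 0, and Txnip stands farthest out at 1.50.

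Genes of insulin processing, breakdown and glucose uptake had higher means in 11 of 16 (median 0.12). Pcsk1n, the gene of the proprotein convertase inhibitor proSAAS, had a difference of 0.42 (limma adjusted p = 0.63), and the prohormone convertase gene Pcsk1 one of -0.15 (adjusted p = 0.80). Slc2a4, the insulin-responsive glucose transporter of muscle and fat, was at background, at 4.21 to 4.29 in diabetic and 4.28 to 4.40 in control ganglia. Hk2, the insulin-regulated hexokinase, was below background as well, at 4.58 to 4.70 in diabetic and 4.80 to 4.92 in control ganglia. Its groups did not overlap, as in 8.32% of all clusters in this direction (limma adjusted p = 0.64).

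Profiles over the 6 arrays were compared with 8592 other coding clusters above background. The closest to Igf1r were Reps1 and Ubqln2, with a Pearson r of 0.9987 and 0.9966, to Insr Ncald and Nr2c2 (0.9955 and 0.9946), to Irs2 Lonrf1 and Prep (0.9969 and 0.9967) and to Igf2r Cacna1c and Tcaf1 (0.9945 and 0.9942). For Igfbp5 they were Tnfsf15 and Crispld2 (0.996 and 0.9903), and for Igf1 Ppp2ca and Pbdc1 (0.9874 and 0.9864). Each r rests on 6 points and is the highest of many candidates, so it singles out no partner. Clusters that exceeded 0.95 numbered 321 with Igf1r, 312 with Irs2, 183 with Insr and 60 with Igf2r. With Igfbp5 there were 32 and with Igf1 21. What these clusters share was not tested.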

How the data were processed

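RNA of dorsal root ganglia was labelled from 100 ng of total RNA and measured on 6 arrays, 3 per group. The authors deposited log2 signals per transcript cluster, made by gene-level SST-RMA (signal space transformation, robust multi-array averaging) per the file headers; RMA can compress differences of dim clusters. Neither the build nor the software version is named there. The deposited series matrix differed from the annotated table in 0 cells, and the detection calls, all 423480 of them absent, were not used. The 1738 control probe sets were left out of the tests, and no filter on low values was used. Signal over background takes the place of depth, and precision is limited by how many arrays there are.

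Diabetic minus control was fitted with limma 3.58.1 in R 4.3.3 (group as the only term, eBayes with an intensity trend), with Benjamini-Hochberg adjustment over 68842 clusters, and tested on simulated data. An exact permutation test of 3 against 3 rats cannot go below p = 0.1 and was not used. A symbol with several clusters was represented by that of highest mean, and G6pc1 was found under its older symbol G6pc. The genes named are the 10 members, the 2 of each pathway list with the smallest p, and 16 fixed ones, plus markers and genes said to be named after their values were seen; 1 gene of the rule is not reported here. Members and lists were chosen with earlier results of these data known. Alternatives were array scaling, variance model, array weights, a filter, a replicate block and each array left out. Same-numbered arrays gave no sign of pairing.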

Additional observations from a re-analysis of the deposited data

How the results depend on the processing

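The count of the 10 genes past an adjusted p of 0.05 was 0 under all 13 alternatives (limma), and so was that of the 134 pathway genes. At an unadjusted limma p under 0.05 the 10 genes gave 0 to 4 and the pathway genes 3 to 27. Over all clusters this count was 5402 in the main fit. It ran from 3243 without diabetic replicate 3 to 8441 without control replicate 2. Differences of Insr, Igf1r, Irs2, Igf1, Igfbp5, Ins1 and Ins2 kept their sign in all alternatives that could change it. The variance models, the filter and the replicate block leave each difference as it is by construction. With an array left out, differences ran from 0.34 to 0.62 for Insr, 0.29 to 0.69 for Igf1r, 0.14 to 0.46 for Irs2, -0.55 to -0.05 for Igf1, -1.46 to -0.39 for Igfbp5, -0.41 to -0.21 for Ins1 and -0.38 to -0.06 for Ins2. Those of Igf2r (-0.07 to 0.35), Irs1 (-0.01 to 0.14) and Igf2 (-0.03 to 0.08) changed sign, Igf2 also with array weights (-0.03). The cause was not tested. Centring the arrays on their medians gave a median over all clusters of 0.032, against -0.043 as deposited, and 59.2% of clusters with higher means, against 38.2%. Averaging clusters per symbol could not change a value, each symbol having 1.

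Alternatives for the marker lists were chosen after seeing the data. With an array left out, medians ran from -0.72 to -0.49 (myelinating Schwann cells), -0.10 to 0.04 (satellite and other glia), -0.02 to 0.16 (neurons), -0.49 to -0.04 (fibroblasts), 0.03 to 0.47 (macrophages), -0.64 to -0.03 (skeletal muscle), -0.05 to 0.16 (endothelium), -0.11 to 0.03 (leptomeningeal and mural cells) and -0.11 to -0.01 (islet genes), and for islet genes the median was 0.01 after median centring and -0.19 with the filter.

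Replicate numbers are shared between the groups. Deviations of same-numbered arrays from their group means correlated at 0.041, -0.119 and -0.132 over all clusters. Those of differently numbered arrays ran from -0.0479 to 0.148. These values gave no sign of pairing, but with 3 arrays per group they cannot settle whether the rats were paired. With the replicate block 0 of the 10 genes and 0 pathway genes passed, as without it. At an unadjusted limma p under 0.05 there were 1 and 5, against 2 and 11 without the block. Over all clusters there were 4682 with the block, against 5402. For the block, the differences themselves are the same by construction: 0.44 for Insr and -0.86 for Igfbp5.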

Other observations

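Of 12 islet genes, Ins1 and Ins2 included, 10 lay below background on all arrays, Gcg and Iapp among them. Slc30a8, the zinc transporter of insulin granules in beta cells, was at 6.00, 5.76 and 5.71 in diabetic replicates 1, 2 and 3, against 5.26, 5.47 and 5.32 in control replicates 1, 2 and 3. The groups did not overlap, which 4.96% of all clusters showed in this direction, and limma gave an unadjusted p of 0.0037 and an adjusted p of 0.53. All its signals were below the background percentile, so no fold is given. Chga, the chromogranin of secretory granules that neurons share with islets, was above background on all arrays, at 12.11, 11.50 and 11.89 in diabetic replicates 1, 2 and 3, against 11.16, 11.80 and 11.04 in control replicates 1, 2 and 3. Both genes were named after their values were seen.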
